A study of Mus musculus with 2 samples.

Results

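The sarcoplasmic reticulum calcium cycle of the neonatal mouse heart is described here through 10 genes chosen by symbol for their roles in release, storage and uptake: Ryr2, Trdn, Asph, Jph2, Casq2, Casq1, Srl, Atp2a2, Pln and Sln. They are 10 of 55536 annotated genes in the gene tables, and each symbol was found once. The study holds a single group of 2 libraries, made from heart tissue of females of the mouse F1 strain B6CASTF1/J, aged 4 days. The labels give no modified allele and no agent, and no group was set against another, so no p-value was computed. Total RNA was sequenced from 300 ng of input after reduction of ribosomal RNA, in stranded libraries with ERCC spike-ins, which are synthetic RNAs added in known amounts. The libraries carry the numbers 1 and 2 as biological replicates but a shared donor label, so only the numbering speaks for separate animals, and the spread between them may be technical.

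In heart muscle, calcium that enters through the surface membrane opens ryanodine receptors in the sarcoplasmic reticulum, and the released calcium starts contraction. Triadin and junctin hold the receptor to calsequestrin, the calcium store of the lumen, while junctophilin keeps the reticulum close to the surface membrane. The SERCA pump returns calcium to the lumen, and the small membrane proteins phospholamban and sarcolipin slow it. The reticulum is sparse in newborn rodent heart cells and grows as the heart matures.

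The reference coding sequences of the genes that the results turn on are given 5′ to 3′ as GENCODE M21 has them on mm10, which is the C57BL/6J allele and not that of the other parent. The pump inhibitors are short enough to be shown whole. In Pln, capitals mark codons 16 and 17, the serine and the threonine that kinases phosphorylate to lift the block on the pump. In Sln, capitals mark codons 27 to 31, the last before the stop and the tail that lies in the lumen.
Pln: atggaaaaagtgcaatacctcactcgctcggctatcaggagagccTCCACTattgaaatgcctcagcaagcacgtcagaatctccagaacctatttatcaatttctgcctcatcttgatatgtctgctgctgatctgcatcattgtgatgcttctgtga
Sln: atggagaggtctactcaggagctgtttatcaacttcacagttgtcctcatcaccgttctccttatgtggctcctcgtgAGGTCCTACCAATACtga
The Pln sequence has 159 bases with its stop and codes for 52 residues, and that of Sln has 96 bases and codes for 31.

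The pump gene Atp2a2 makes products that differ only at their end, and the end sequences are shown because the libraries held both. Transcript Atp2a2-202 codes for 998 residues, the muscle form SERCA2a, and Atp2a2-201 for 1044 residues, the widespread form SERCA2b. They share the first 2983 coding bases. Both sequences start at coding base 2953, and capitals mark what follows the last shared base.
Atp2a2-202: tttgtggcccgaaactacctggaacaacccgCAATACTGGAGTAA
Atp2a2-201: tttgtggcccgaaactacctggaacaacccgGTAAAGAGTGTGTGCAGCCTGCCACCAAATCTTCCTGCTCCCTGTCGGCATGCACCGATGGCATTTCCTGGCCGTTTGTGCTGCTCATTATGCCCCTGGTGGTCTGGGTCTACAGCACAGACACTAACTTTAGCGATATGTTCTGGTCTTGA

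The calsequestrins bind calcium through acidic residues that crowd at their end, where the cardiac gene Casq2 and the skeletal muscle gene Casq1 differ. Capitals mark codons that begin with GA, which are those for aspartate and glutamate, in the last 40 codons before the stop.
Casq2: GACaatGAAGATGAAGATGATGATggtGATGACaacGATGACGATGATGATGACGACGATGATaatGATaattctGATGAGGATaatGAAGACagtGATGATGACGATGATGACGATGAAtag
Casq1: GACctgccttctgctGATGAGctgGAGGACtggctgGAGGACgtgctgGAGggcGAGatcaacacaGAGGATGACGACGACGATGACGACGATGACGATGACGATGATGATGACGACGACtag
Of these 40 codons, 32 were acidic in Casq2 and 27 in Casq1, and the unbroken acidic run before the stop was 8 codons in Casq2 and 18 in Casq1. Over the whole coding sequence the shares were close, with 111 of 415 codons (26.7%) in Casq2 and 115 of 405 (28.4%) in Casq1.

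The libraries held 36175363 expected counts in replicate 1 and 32509660 in replicate 2, where an expected count is an estimated number of reads and need not be whole. A gene with no count could still hold up to 3 at this depth, which is 0.0829 CPM in replicate 1 and 0.0923 CPM in replicate 2 (CPM is counts scaled to library size). The labelled tissue was checked against 9 cardiomyocyte markers, all of which had at least 1 TPM, a transcript abundance scaled by length and library size, in both libraries, with summed levels of 34505 TPM in replicate 1 and 34932 in replicate 2. Of the 8 marker lists examined, the summed level differed most for red cell genes, whose 7 markers summed to 17279 TPM in replicate 1 and 221 in replicate 2. A set of 18 skeletal muscle markers summed to 88.3 TPM in replicate 1 and 30.7 in replicate 2.

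All 10 genes reached 1 TPM in both libraries, where 54.2% of nuclear protein-coding genes did. Their summed level was 5185 TPM in replicate 1 and 5282 in replicate 2 (mean 5233 ± 69.0, SD, n = 2), and they took 1.40% ± 0.018 of the expected counts. The levels spanned a wide range: 8 of the 10 were within the top 10% of the 11935 expressed protein-coding genes and 3 within the top 1%, whereas Casq1 lay below the median of those genes, which was 12.5 TPM. Because TPM is scaled by length, levels of different genes can be set side by side. In whole heart tissue, fewer cells of a type and less RNA per cell cannot be told apart.

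**Figure D1:**
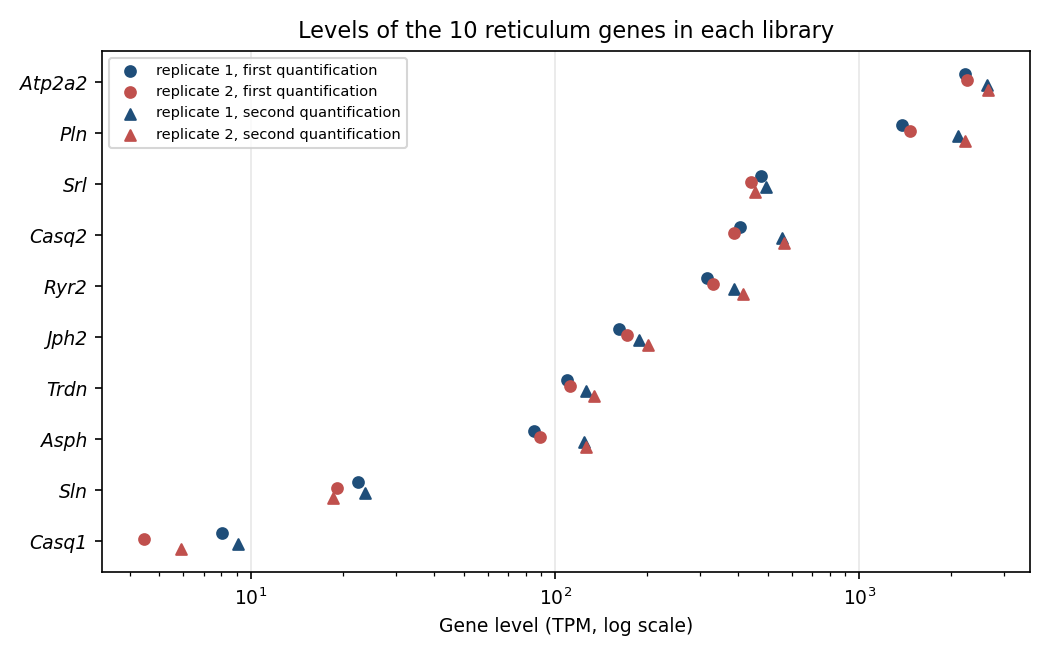
Level of each of the 10 genes in TPM (log axis) in replicate 1 (blue) and replicate 2 (red). Circles are the first quantification and triangles the second. Atp2a2 and Pln stand at 1377 TPM or more in every table, Casq1 is lowest in every table, and the replicates lie furthest apart for Casq1.

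The release machinery was led by Ryr2, the ryanodine receptor of heart muscle, on the minus strand of chr13:11553102-12106945. Ryr2 stood at 315 TPM in replicate 1 and 332 in replicate 2 (323 ± 12.0, SD, n = 2), from 107214 and 93260 expected counts. Its level was above that of 98.2% of expressed protein-coding genes. Trdn, which codes for triadin, the anchor between the receptor and calsequestrin, lies on the plus strand of chr10:33080554-33476709. It stood at 109 and 112 TPM (110.5 ± 1.60). Asph codes for junctin and junctate as well as a long enzyme that hydroxylates aspartate residues, and lies on the minus strand of chr4:9448069-9669344. Its level was 85.1 TPM in replicate 1 and 89.4 in replicate 2 (87.2 ± 3.02). Jph2, the junctophilin that bridges the surface membrane and the reticulum, lies on the minus strand of chr2:163336242-163397993. Jph2 had 162 and 172 TPM (167 ± 7.02).

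Among the store proteins, Srl (chr16:4480216-4541816, minus strand) codes for sarcalumenin, a calcium-binding glycoprotein of the lumen. It had 474 TPM in replicate 1 and 440.1 in replicate 2 (457 ± 23.8, SD, n = 2). Casq2 (chr3:102086415-102146514, plus strand), the cardiac calsequestrin, had 405 and 388 TPM (396 ± 12.4). The skeletal muscle calsequestrin Casq1 (chr1:172209894-172219868, minus strand) had 8.02 TPM in replicate 1 and 4.46 in replicate 2 (6.24 ± 2.52). Casq1 rested on 355 and 175 expected counts, against 27718 and 23069 for Casq2. The Casq1 level was above that of 28.4% of expressed protein-coding genes, and those of Srl and Casq2 were above 99.0% and 98.7%.

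The pump gene and its inhibitor phospholamban were the most abundant of the group. Atp2a2, which codes for the SERCA2 pump on the minus strand of chr5:122453513-122502225, had 2226 TPM in replicate 1 and 2257 in replicate 2 (2242 ± 21.5, SD, n = 2). Its 248624 and 220449 expected counts made it the most deeply covered of the 10 genes. Phospholamban, coded by Pln on the plus strand of chr10:53337667-53345987, had 1377 and 1469 TPM (1423 ± 65.0). Sarcolipin, coded by Sln on the plus strand of chr9:53850164-53854560, had 22.5 TPM in replicate 1 and 19.2 in replicate 2 (20.9 ± 2.37), from 771 and 574 expected counts. The first of these inhibitors is known mainly from ventricle and slow muscle, and the other from atria and skeletal muscle.

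By mean TPM the order was Atp2a2, Pln, Srl, Casq2, Ryr2, Jph2, Trdn, Asph, Sln and Casq1. In the first quantification, no neighbours in this order overlapped between the libraries. The closest were Srl and Casq2, with Srl 1.17-fold higher in replicate 1 and 1.14-fold in replicate 2. The second quantification turned that pair around, since Casq2 had 559 and 564 TPM there and Srl 494 and 456. It also brought Trdn and Asph nearly level, at 126 and 134 TPM for Trdn and 125 and 126 for Asph. The other neighbours kept their places there, so the order of Srl against Casq2 and of Trdn against Asph is not settled by these data.

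Values in the second quantification were a median of 1.19 times those in the first over the 10 genes, and 1.30 times over expressed protein-coding genes. The shift was largest for Pln, at 1.53 times, and smallest for Sln, at 1.02 times. Pln had 2107 TPM in replicate 1 and 2235 in replicate 2 in the second quantification, although its estimated counts, 53904 and 51986, were close to those of the first. The effective length behind those Pln values was 986 and 1012 bases in the second quantification and 1399 and 1433 in the first.

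Next, each gene was set against its paralogues, the related genes that serve other tissues. A pair was counted as apart when the TPM ratio was at least 2-fold in the same direction in both libraries. All 8 paralogue pairs were apart, in both quantifications, with the heart form higher each time. Ryr2 exceeded Ryr1, the skeletal muscle receptor, 807-fold in replicate 1 and 11057-fold in replicate 2 (log2 ratio 11.54 ± 2.67, SD, n = 2). The width of that spread lies in Ryr1, which had 139 and 5 expected counts, or 0.39 and 0.03 TPM. In the second quantification Ryr2 was 762-fold and 3832-fold above Ryr1, and with 1 TPM added to both genes the mean log2 ratio was 8.08. Over Ryr3, the receptor known from brain and smooth muscle, Ryr2 was 103-fold and 123-fold higher (6.82 ± 0.18).

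The pump genes showed the same picture. Atp2a1, the fast skeletal muscle pump, had 330 expected counts (4.00 TPM) in replicate 1 and 16 (0.30 TPM) in replicate 2. The Atp2a2 level was accordingly 557-fold and 7523-fold higher (log2 ratio 11.00 ± 2.66), and 609.6-fold and 6302-fold in the second quantification. Against Atp2a3, a pump of nonmuscle cells at 3.67 and 4.67 TPM, Atp2a2 was 607-fold and 483-fold higher (9.08 ± 0.23). Casq2 exceeded Casq1 by 50.5-fold in replicate 1 and 86.9-fold in replicate 2 (6.05 ± 0.55), and by 61.8-fold and 96.1-fold in the second quantification.

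Among the junctophilins, Jph1, the main form of skeletal muscle, was the only other one above 1 TPM, at 7.15 and 8.24 TPM. Jph2 exceeded Jph1 by 22.7-fold and 20.9-fold (4.45 ± 0.08), the smallest of the paralogue ratios. Of the neuronal forms, Jph3 had 3 counts in replicate 1 and 1 in replicate 2, no more than the limit for a gene with no count, so no fold is given for it. Jph4 had 8 and 5 counts, and Jph2 exceeded it by 11.46 ± 0.40 on the log2 scale.

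Pln and Sln, the pump inhibitors, were 61.1-fold apart in replicate 1 and 76.6-fold in replicate 2, with Pln higher (6.10 ± 0.23). In the second quantification the Pln to Sln ratio was 88.8-fold and 120-fold. Pln stood at 0.619 and 0.651 of the level of Atp2a2, the gene of the pump it binds, and at 0.799 and 0.846 in the second quantification. Sln was far below its pump on the same scale.

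**Figure D2:**
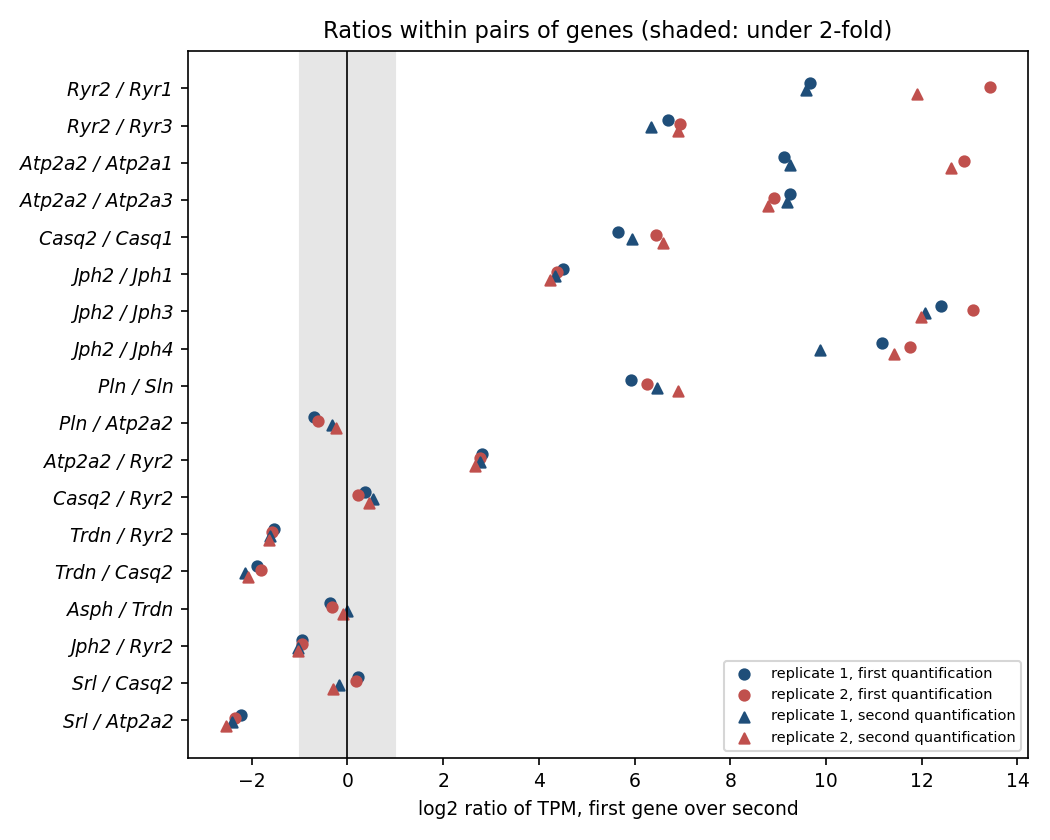
Log2 ratio of TPM of the gene named first over the gene named second, for 18 pairs, in replicate 1 (blue) and replicate 2 (red), with circles for the first quantification and triangles for the second. The 8 paralogue pairs lie right of the shaded zone of less than 2-fold. The replicates part most in the pairs with Ryr1 and Atp2a1.

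Partners in the same complex or cycle were closer to each other, with 4 of 9 such pairs apart by at least 2-fold. Atp2a2 was 7.07-fold above Ryr2 in replicate 1 and 6.80-fold in replicate 2 (log2 ratio 2.79 ± 0.04, SD, n = 2), so the pump transcript was the more abundant of uptake and release. Trdn stood at 0.347 and 0.337 of the Ryr2 level and at 0.270 and 0.288 of the Casq2 level. Srl stood at 0.213 and 0.195 of the Atp2a2 level.

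Casq2 was 1.29-fold and 1.17-fold above Ryr2, a difference of less than 2-fold. Jph2 stood at 0.516 and 0.519 of Ryr2, just inside the 2-fold limit, and just past it by the second quantification, at 0.487 in both. With coding transcripts alone, the mean log2 ratio of Jph2 to Ryr2 moved from -0.95 to -0.58. That of Casq2 to Ryr2 moved from 0.29 to 0.65. The Asph to Trdn ratio was 0.778 and 0.801 in the first quantification and 0.990 and 0.943 in the second. Over the 9 partner pairs, the SD of the log2 ratio was at most 0.10. Over the paralogue pairs it ran from 0.08 (Jph2 and Jph1) to 2.67 (Ryr2 and Ryr1). Outside the pairs with Ryr1 and Atp2a1 it was at most 0.55.

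Transcript tables then showed which products of each gene were present. The 10 genes have 69 annotated transcripts, of which 36 carry a complete coding sequence and 23 none. Of the 9 genes with more than 1 transcript, 8 had the same leading transcript in both libraries and both quantifications, and counting Sln with its single transcript this held for 9 of 10. Over expressed protein-coding genes with more than 1 transcript the share was 66.7%. Within the first quantification, all 9 kept 1 leading transcript in both libraries, where 89.6% of those genes did. Pln was the exception, and its 6 annotated transcripts all code for the same 52 residues.

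Atp2a2 was mainly of the SERCA2a form. Atp2a2-202 (998 codons) held 75.0% of the gene's TPM in replicate 1 and 73.4% in replicate 2 (74.2% ± 1.13, SD, n = 2), and 80.0% ± 1.67 in the second quantification. Transcripts for the 1044 codons of SERCA2b held 23.8% and 25.1% (24.4% ± 0.93), and 19.2% ± 1.52 in the second. This includes Atp2a2-203, annotated as subject to nonsense-mediated decay, a breakdown of RNA, at 1.37% ± 0.22 in the first quantification. Atp2a2-201 alone held 23.0% ± 0.71 there. In TPM the SERCA2a form stood at 1670 (replicate 1) and 1657, and SERCA2b at 529 and 566. The SERCA2b transcripts alone were more abundant than those of the whole of Ryr2 in both libraries.

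The full-length receptor transcript Ryr2-201, of 4966 codons in 105 exons, held 67.5% of the Ryr2 TPM in replicate 1 and 62.6% in replicate 2 (65.1% ± 3.50). It held 63.7% ± 4.14 in the second quantification. A shorter coding transcript of 1020 codons, Ryr2-203, held 9.77% and 11.1%, and 6.14% ± 0.52 in the second. The 9 transcripts annotated as retaining an intron, which code for no protein, held 20.9% and 24.4% together, and 26.3% ± 3.08 in the second quantification. Total RNA libraries also hold unspliced RNA, and how much of it is counted in these transcripts was not tested. By expected counts, which are not divided by length, Ryr2-201 alone held 93.1% and 91.4% of Ryr2. In the second quantification it held 94.5% and 92.9%. The TPM shares of the shorter transcripts therefore rest on a small part of the reads. Transcripts annotated as protein-coding gave Ryr2 a mean of 250 TPM, against 323 over all transcripts.

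Among Trdn transcripts with a complete coding sequence, short ones led, the kind known from heart, whereas long triadin is known from skeletal muscle. The transcript of 293 codons, Trdn-202, held 36.2% and 39.4% (37.8% ± 2.32), and 32.4% ± 0.36 in the second quantification. The longest form, Trdn-201 with 693 codons, held 5.96% ± 0.16 and 7.85% ± 0.65. Trdn-202 and Trdn-201 share their first 848 coding bases. Trdn-208, with 277 codons, moved between quantifications, from 6.61% ± 0.10 to 15.7% ± 0.64. Trdn-206, whose coding sequence is incomplete in the annotation, held 20.7% and 18.6%, and 16.8% and 20.7% in the second. A transcript of a single exon annotated as a retained intron, Trdn-204, held 29.1% ± 0.03 and 24.1% ± 0.20, so a large part of the Trdn level is not from coding transcripts.

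Asph divided into short products annotated at 197 to 310 codons and long products of 658 to 741 codons that include the enzyme domain. This division was made after the values were seen. The forms of 294 and 310 codons were at 0 TPM in the first quantification and at most 4.04e-05 TPM in the second. The 9 short forms together held 70.9% in replicate 1 and 70.7% in replicate 2, and 71.7% ± 1.43 in the second quantification. The 3 long forms held 19.6% and 18.5%, and 16.9% ± 0.17 in the second. Asph-208 (272 codons) led with 36.4% and 36.7%, followed by Asph-206 (207 codons) with 15.8% and 17.1%. Asph-202, the 741-codon form, held 9.73% and 11.9%, and Asph-201 (245 codons) held 7.18% and 5.81%. In the second quantification Asph-201 had 12.4% ± 0.58. Between the quantifications the sum over the short forms moved from 70.8% to 71.7%, and Asph-201 alone from 6.49% to 12.4%.

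Srl was split between a short product of 472 codons, known as a glycoprotein of the reticulum, and full sarcalumenin of 910 codons. Srl-202, the short form, held 61.9% in replicate 1 and 61.1% in replicate 2 (61.5% ± 0.51), and 61.2% ± 0.51 in the second quantification. The sarcalumenin transcript Srl-201 held 18.7% and 19.6% (19.2% ± 0.60), and 30.1% ± 0.75 in the second. Srl-202 and Srl-201 share the first 62 and the last 1360 coding bases. Srl-203, a fragment annotated as a retained intron, took 13.8% ± 0.89 in the first quantification and 0.882% ± 0.10 in the second.

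Casq2 was nearly uniform in the first quantification, where Casq2-201 (415 codons) held 98.7% and 98.3%. In the second, Casq2-201 held 84.8% and 79.3%, and the noncoding Casq2-202, listed at 0 in the first, held 14.2% and 19.0%. Casq1-201 (405 codons) held 80.0% and 82.5% of Casq1, and 100% and 87.0% in the second. The remainder in the first quantification was Casq1-202, a retained intron transcript, at 18.8% ± 1.81.

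The transcripts of Pln differ in their noncoding parts alone. Pln-201 led in the first quantification with 50.4% and 52.6%, followed by Pln-205 with 34.3% and 33.0%. In the second quantification Pln-205 was listed at 0 and Pln-204 led with 60.4% and 59.7%, where the first had given it 11.0% and 10.6%. Every Jph2 transcript codes for 696 residues, and Jph2-201 held at least 99.2% in each table. For Pln, Jph2 and Sln, the choice of transcript therefore leaves the coded product as it is.

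**Figure D3:**
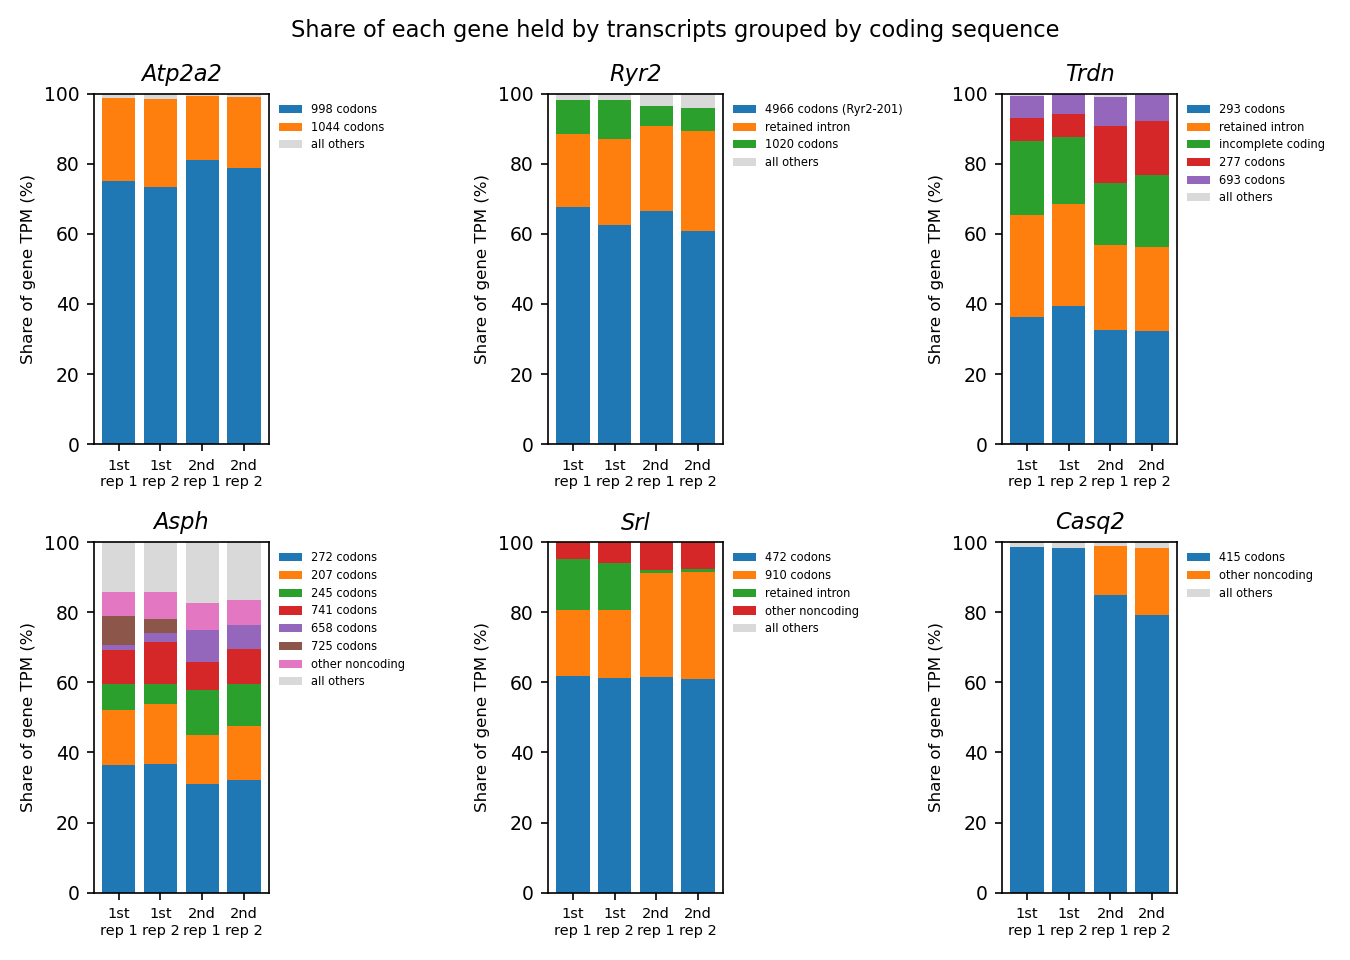
Share of each gene's TPM (%, stacked to 100) held by transcripts grouped by coding sequence, for 6 genes. In each panel the 4 bars are replicates 1 and 2 in the first quantification and then in the second. Atp2a2 and Srl are led by the 998-codon and 472-codon products in all bars, and the noncoding Casq2 transcript appears in the second quantification alone.

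Other genes lie over these loci. In the annotation, 22 genes overlap 8 of the 10 members, 10 on the same strand and 12 on the opposite one. The highest on the same strand reached 15.8 TPM, Gm43359 within Atp2a2. On the opposite strand D830005E20Rik had 18.0 and 18.7 TPM across from Trdn, and Cep85l had 9.52 and 9.78 TPM across from Pln. The strand setting of the authors' counting is not given in the sources used here, so reads of Trdn and of D830005E20Rik may not be fully separated.

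The libraries were then compared with each other, as replicate 2 over replicate 1 after TMM scaling of the counts. This sets 1 library against 1 and has no replicate check, and its intervals cover counting error only. None of the 10 genes differed by 2-fold or more, where 0.86% of 13598 genes tested did (117 genes). At 1.5-fold or more 1 of the 10 was called, Casq1, against 2.29% of all genes. The median log2 ratio of the 10 genes was -0.08, against -0.00 over all genes tested, and 8 of the 10 were below 0.

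Casq1 was lower in replicate 2, with a log2 ratio of -0.91 (95% interval -1.18 to -0.65), a 1.88-fold difference. Sln had a log2 ratio of -0.32 (-0.47 to -0.16). The other 8 genes lay between -0.18 (Srl) and 0.04 (Pln), a difference of at most 1.14-fold. Under 6 ways of scaling, Casq1, Casq2, Srl and Sln were lower in replicate 2 each time and Pln was higher each time. The signs of Ryr2, Trdn, Jph2, Asph and Atp2a2 depended on the scaling. Spike-in totals moved the median of all genes to 0.13 and the ratio of TPM moved it to 0.08. For Casq1 the ratio ran from -0.92 with DESeq2 size factors to -0.78 with spike-in totals.

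Skeletal muscle, atrial and red cell markers were mostly lower in replicate 2, as Casq1 and Sln were. The shift was largest for the red cell markers, where all 6 tested were called and the median log2 ratio was -6.32. Of 18 skeletal muscle markers, 17 had a lower TPM in replicate 2, and of the 8 tested 7 were called at 2-fold, with a median log2 ratio of -2.12. Myh4 and Myod1 were at 0 counts in replicate 2, and no marker was at 0 in both. Of the skeletal muscle paralogues, Atp2a1 had a log2 ratio of -4.21 (-5.08 to -3.54) and was called, and Ryr1, too low for the test, had the 139 and 5 counts given above. Jph1 lay the other way, with a log2 ratio of 0.12 (-0.01 to 0.26). The 11 atrial markers summed to 2593 TPM in replicate 1 and 2238 in replicate 2, and 8 of the 11 had a lower TPM in replicate 2. On the scaled counts all 11 had log2 ratios below 0, with a median of -0.35 and none called. The 8 smooth muscle and pericyte markers did not share this direction, with 6 higher and 2 lower in replicate 2 and a median of 0.08. The part of skeletal muscle, atrial or red cell RNA in the Casq1 and Sln ratios was not tested.

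The 7 ventricular markers had a median log2 ratio of 0.00, with sums of 12399 and 13076 TPM. For the 9 cardiomyocyte markers the median log2 ratio was -0.05, with 6 lower and 3 higher in replicate 2 and none called. The 7 fibroblast markers were all higher in replicate 2 (1540 and 1857 TPM summed), with a median log2 ratio of 0.16. The 6 endothelial markers summed to 469 and 480 TPM, and 5 of them had log2 ratios below 0, with a median of -0.05.

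**Figure D4:**
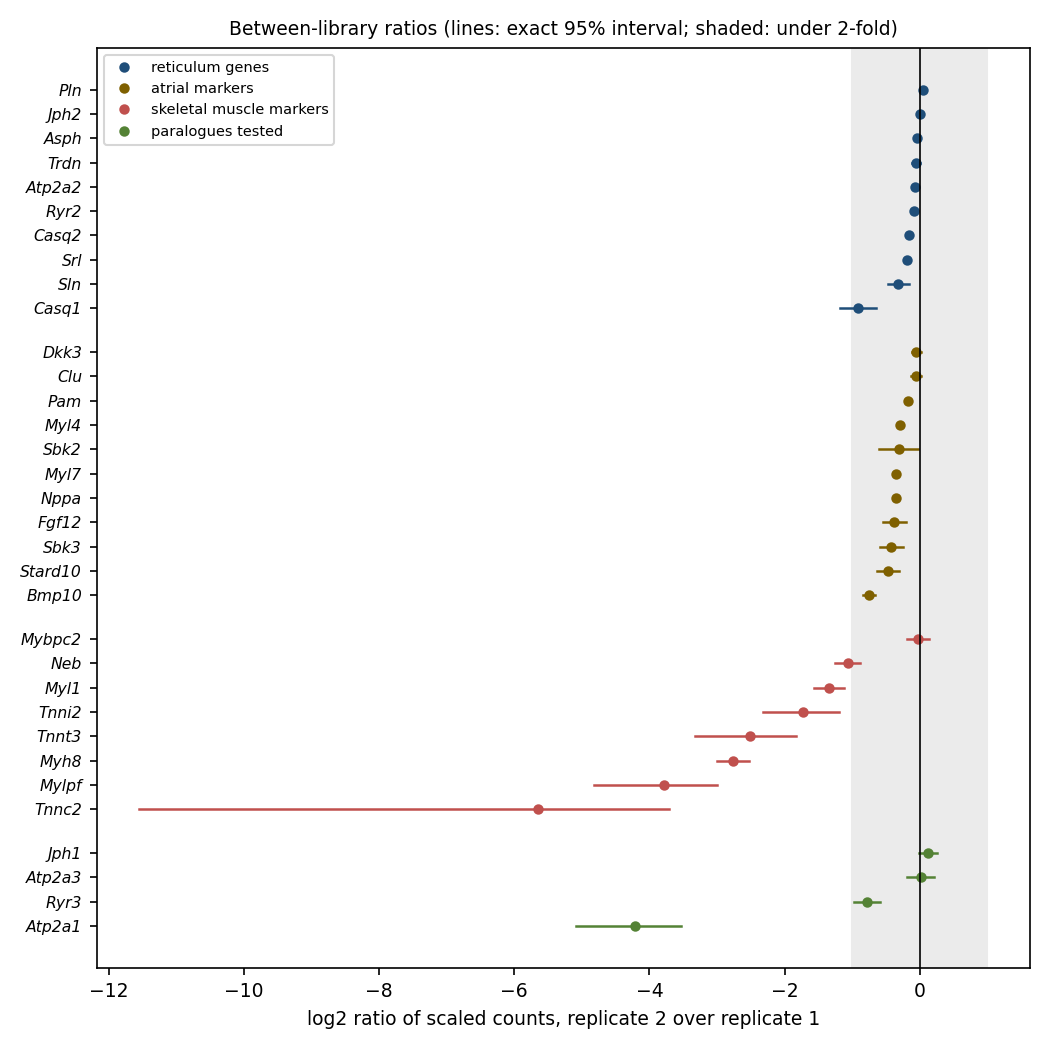
Log2 ratio of scaled counts, replicate 2 over replicate 1, for the 10 reticulum genes (blue), atrial markers (brown), skeletal muscle markers (red) and the 4 tested paralogues (green). Lines are exact 95% intervals of counting error, and the shaded zone is less than 2-fold. All 10 reticulum genes have their point inside the zone, while 7 of 8 skeletal muscle markers and Atp2a1 lie to its left.

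Other genes of reticulum calcium handling were taken from lists by role, of which 41 of 42 symbols were found. At least 1 TPM in both libraries was reached by 33 of them, where 54.2% of nuclear protein-coding genes reached it. Of the 35 tested between the libraries, Atp2a1 alone was called at 2-fold, where 0.86% of all genes tested were called. The median log2 ratio of the 35 was -0.05, against -0.00 over all genes tested. The lists are given here for their levels.

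Of the inositol trisphosphate receptors, another family of release channels, Itpr1 was highest at 31.8 and 35.5 TPM and Itpr2 followed with a mean of 21.1 ± 1.27. Both were far below Ryr2. Among regulators of the ryanodine receptor, Fkbp1a, which codes for a small immunophilin bound to it, had a mean of 198 ± 4.30 TPM. Of the genes that act on the pump, Ppp1cb, a catalytic subunit of the phosphatase that acts on phospholamban, had 210 and 213 TPM. Prkaca, the catalytic subunit of protein kinase A, had 172 and 174. All 9 receptor regulators and 5 of the 6 pump regulators found had at least 1 TPM in both libraries, the exception being Mrln, the gene of the skeletal muscle pump inhibitor myoregulin, with 4 counts in each library.

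Calcium binders of the lumen were all present, 5 of 5, led by the chaperones Hspa5 (199 and 198 TPM) and Calr (159 and 161 TPM). Each was below Casq2 and Srl. Of 9 other junction genes, 5 reached 1 TPM in both libraries. Tmem38a, which codes for a cation channel of the reticulum membrane, had 94.6 and 88.4 TPM. Bin1, which shapes the tubules that junctions form on, had 8.63 and 8.29. Of the 5 genes of store-operated entry, which refills the reticulum from outside, 4 reached 1 TPM in both libraries, led by the sensors Stim2 at 12.4 and 12.1 TPM and Stim1 at 10.6 and 10.7.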

How the data were processed

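The deposited tables of each library are a gene table and a transcript table in the layout of RSEM, and a further transcript table in the layout of kallisto. The genome is mm10 and the annotation M21, per the file headers and the labels. The first 2 tables hold expected counts and TPM as deposited by the authors (the first quantification). The third holds estimated counts and TPM (the second quantification), which were summed per gene. No program, version or strand setting of the counting is given in the sources used here. Rows that name no annotated gene were left out of the scaling: 96 spike-ins took 0.582% and 0.547% of the counts, and 26249 other features almost none. Coordinates are 1-based.

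The members and lists were chosen with earlier results of these data known. Levels are TPM with the mean and SD of 2 libraries. For the ratio between libraries, expected counts were rounded, TMM factors came from edgeR 4.0.16 in R 4.3.3, and 0.5 was added as a prior count. Genes with a mean of 1 TPM or more and 20 or more counts over both libraries were tested. A call needed a 2-fold ratio and an exact Clopper-Pearson interval (95%) without equality. Reads carry no molecular identifiers, so intervals hold counting error alone. This step was tested on simulated counts that held counting error alone and planted changes beyond 2-fold. That test does not cover variation between libraries.

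Named genes are the members, every gene of the pairs, the 2 highest by TPM in each list, list genes called or at 0 in both libraries, and transcripts with at least 10% of a gene in any table. A list gene under this rule is not reported here. The overlapping genes, Mrln, Trdn-201 and single marker genes were named after their values were seen. Python 3.11.15, numpy 2.4.6, pandas 2.3.3, scipy 1.17.1 and matplotlib 3.10.9 were used, and DESeq2 1.42.0 for its size factors among the alternatives.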

Additional observations from a re-analysis of the deposited data

How the results depend on the processing

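All 10 genes stayed at 1 TPM or more in both libraries under the second quantification and with coding transcripts alone. The same held under TPM rescaled to nuclear protein-coding genes, which leaves mitochondrially encoded genes out of the total. In the first quantification 9 reached 5 TPM, the exception being Casq1. Rescaling to nuclear protein-coding genes raised the levels themselves, from 2242 to 4917 TPM for Atp2a2 and from 6.24 to 13.7 for Casq1. The 13 of 18 pairs apart by 2-fold became 14 in the second quantification, 16 by CPM and 12 with coding transcripts alone. With coding transcripts alone, Jph2/Jph3 had no ratio that could be computed and was not counted. The count was 11 at 4-fold, and 13 with a pseudocount of 1 TPM or in either library alone. The sign changed in 3 pairs of less than 2-fold: Casq2/Ryr2 (0.29 to -1.98 by CPM, which does not correct for length), Asph/Trdn (-0.34 to 0.58 by CPM and 0.05 with coding transcripts alone) and Srl/Casq2 (0.20 to -0.24 in the second quantification and -0.09 with coding transcripts alone). The count of genes with 1 leading transcript was 9 under all 4 alternatives tried, of which the 2 that use a single library compare the quantifications alone. By expected counts the exception was Trdn and not Pln: Pln-201 led throughout, while Trdn-204 led in the first quantification and Trdn-208 in the second. Between the libraries, no member was called under the other scalings, without the minimums, by the ratio of TPM or in the second quantification, and lowering the fold to 1.5, which by construction calls no fewer genes, called 1, Casq1.

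Leaving out a replicate gives no comparison between the libraries, since 1 library would remain. No paired analysis was possible because there is a single group. Depth limits Ryr1, Jph3, Jph4 and Mrln, whose counts were 5 or fewer in a library. Transcript shares rest on how each quantification divides reads among overlapping transcripts, and many of them differed between the quantifications. These include Pln-201, Pln-204, Pln-205, Casq1-201, Casq1-202, Casq2-201, Casq2-202, Srl-201, Srl-203, Trdn-204, Trdn-208, Asph-201, Asph-208, Atp2a2-201, Atp2a2-202 and Ryr2-203.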
